A study of Mus musculus with 4 samples.

Results

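The 10 early genes described are the zinc finger genes Egr1, Egr2 and Egr3, the orphan nuclear receptor genes Nr4a1, Nr4a2 and Nr4a3, the immediate early response genes Ier2, Ier3 and Ier5, and the stress gene Gadd45b. They were chosen by symbol, and all 10 were found among the 19505 gene symbols on the array, each taken at the feature with the highest mean signal. CD8+ T cells from lymph nodes and spleens (mouse strain C57/BL6) were grown for 3 days with interleukin 2 and with beads that carry antibodies to CD3, part of the antigen receptor, and to the co-stimulatory receptor CD28. The 2 control cultures were otherwise left untreated, and the 2 spermidine cultures had 25 µM spermidine, a natural polyamine, in the medium. Each culture was measured on 1 Clariom S Mouse array from 250 ng of total RNA. The labels call the arrays of a group biological replicates and give neither the number nor the age of the animals, so the p-values cover nothing beyond the spread of these 4 samples.

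Early genes are switched on by signals that reach the nucleus through proteins the cell already holds, and their transcripts are short-lived. In T cells the antigen receptor induces them through the ERK kinase, which acts on serum response factor and its partners, and through calcium, which acts on calcineurin, NFAT and MEF2. EGR2, EGR3 and the NR4A receptors are also known for restraining T cells that are stimulated for long or without co-stimulation. The cells measured here had been in culture with the stimulus for 3 days.

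Markers of CD8+ T cells were present on every array: 9 of 9 measured genes, among them Cd3e, Cd8a and Cd8b1, lay above 6.35, the 95th percentile of the 23 antigenomic background features (probes designed to match nothing in the genome). Array medians ran from 5.13 to 5.25 and with 4 arrays the precision is limited by their number. Of the 9 measured B cell markers, 4 lay above that background on every array (Cd79a, Cd79b, Fcer2a and Cd180), and Ms4a1 and Pax5 lay below it on every array. The B cell list averaged 5.70 and 5.61 (log2 signal) on the control arrays and 6.27 and 5.98 on the spermidine arrays, and in 5 of its 9 genes the spermidine arrays were the higher pair, as they were in 18.3% of all gene features. The CD8+ T cell list averaged 14.10 and 14.15 on the control arrays and 13.99 and 14.11 on the spermidine arrays. Of its 9 genes the spermidine arrays were the higher pair in 1 and the lower pair in 4, against 18.4% of all gene features lower. Of the 3 measured CD4+ T cell markers, Cd4 lay above background on every array, Zbtb7b on 3 arrays and Cd40lg on none. Zbtb7b was the only 1 of these with the spermidine arrays as the higher pair. B cells and CD4+ T cells also express early genes. Whether such cells were in these cultures, and whether their RNA has a part in the differences given here, was not tested. Of the 10 measured macrophage and monocyte markers, 9 lay below background on every array, including Csf1r, Adgre1 and Cd14. The other, Ly6c2, stood at 17.14 and 16.65 on the control arrays and at 16.25 and 15.60 on the spermidine arrays. In this list the spermidine arrays were the higher pair in 3 genes and the lower pair in 3. Such bulk signals cannot tell fewer cells of a type from less RNA per cell.

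The promoters of the NR4A genes, Egr2 and Gadd45b are shown with their letter matches to a set of known motifs. The set of RefSeq windows used here (build GRCm38.p6) covered 7 of the 10 genes: Egr2, Nr4a1, Nr4a2, Nr4a3, Ier3, Ier5 and Gadd45b. No window was at hand for Egr1, Egr3 and Ier2, so their motifs are not described. The 250 bases before the transcription start are printed in the direction of the gene. Capitals mark matches, on either strand, to these motifs: the cyclic AMP response element TGACGTCA, its core TGACG, which lies within it, the AP-1 site TGACTCA, the EGR site GCGNGGGCG, the NR4A monomer site AAAGGTCA, the TATA motif TATAAA, the CCAAT box (CCAAT) and the CArG box of serum response factor, the MEF2 site and the NF-kappa-B site, which are given by name. The windows lie at chr15:101266596-101266845 (plus strand) for Nr4a1, chr2:57124004-57124253 (minus strand) for Nr4a2, chr4:48045055-48045304 (plus strand) for Nr4a3, chr10:67537619-67537868 (plus strand) for Egr2 and chr10:80929841-80930090 (plus strand) for Gadd45b.
Nr4a1: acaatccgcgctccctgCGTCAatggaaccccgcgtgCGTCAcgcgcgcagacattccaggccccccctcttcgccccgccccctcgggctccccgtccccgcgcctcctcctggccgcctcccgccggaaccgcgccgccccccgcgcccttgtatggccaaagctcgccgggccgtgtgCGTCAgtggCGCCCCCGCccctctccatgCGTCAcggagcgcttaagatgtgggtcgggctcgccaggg
Nr4a2: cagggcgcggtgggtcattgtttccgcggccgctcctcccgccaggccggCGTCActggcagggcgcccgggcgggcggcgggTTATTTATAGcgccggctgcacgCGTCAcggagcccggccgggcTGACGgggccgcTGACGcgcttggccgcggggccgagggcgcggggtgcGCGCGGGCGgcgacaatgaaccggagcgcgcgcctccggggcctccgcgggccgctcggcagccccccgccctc
Nr4a3: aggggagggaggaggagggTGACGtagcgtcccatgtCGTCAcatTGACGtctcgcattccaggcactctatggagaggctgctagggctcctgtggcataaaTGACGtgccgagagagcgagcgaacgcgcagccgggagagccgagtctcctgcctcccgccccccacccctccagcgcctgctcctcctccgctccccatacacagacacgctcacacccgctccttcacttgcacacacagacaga
Egr2: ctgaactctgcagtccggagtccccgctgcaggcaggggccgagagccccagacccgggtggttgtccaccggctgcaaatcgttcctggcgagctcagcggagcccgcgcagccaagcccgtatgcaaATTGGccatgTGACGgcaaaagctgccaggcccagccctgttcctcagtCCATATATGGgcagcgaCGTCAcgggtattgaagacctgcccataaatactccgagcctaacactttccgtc
Gadd45b: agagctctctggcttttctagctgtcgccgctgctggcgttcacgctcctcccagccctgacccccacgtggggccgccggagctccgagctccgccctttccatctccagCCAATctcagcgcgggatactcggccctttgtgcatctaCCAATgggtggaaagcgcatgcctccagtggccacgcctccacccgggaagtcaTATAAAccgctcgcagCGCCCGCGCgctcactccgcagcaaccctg

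All 3 NR4A windows held 4 cyclic AMP response cores. Across all 32851 windows of that length 17.8% held at least 1 and 0.137% held at least 4, a count made after the NR4A windows had been seen. The letters G and C made up 74.4% of the Nr4a1 window, 80.0% of that of Nr4a2 and 63.6% of that of Nr4a3. The median over all windows was 52.4%. The shares of all windows given here are not matched for base composition, so they do not show how unusual a match is among windows of like composition. The full element, found in 1.55% of windows, was in none of the members' windows. The Egr2 window carried a CArG box 72 bases before the start and a cyclic AMP response core on each strand. RefSeq lists 5 starts for Egr2, and 4 of those 5 windows, 3 of which overlap, held a CArG box, which 1.47% of all windows hold. An EGR site, in 4.7% of all windows, was found in Nr4a1, Nr4a2 and Gadd45b. The Nr4a2 window held a MEF2 site (2.92% of windows) that overlaps the TATA motif on the other strand. Gadd45b had the TATA motif 46 bases before its start (12.4% of windows) and 2 CCAAT boxes (33.8% of windows). The Ier3 window, not printed, held an NF-kappa-B site (3.9% of windows) and 2 CCAAT boxes, and the Ier5 window held 2 CCAAT boxes. The AP-1 site (4.46% of windows) and the NR4A monomer site (1.34% of windows) were in none of the members' windows. A match of letters is a description and not a measured binding site.

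The comparison addressed how these genes differ in activated CD8+ T cells in the presence of spermidine. Gadd45b and Ier5 had higher signals in both spermidine arrays by more than the gap between arrays of either group, as did Nr4a3, and Ier3 was higher by less than its control gap. Over all gene features, 18.3% had both spermidine arrays higher, and in 24.5% the difference, in either direction, exceeded the larger gap. Both control arrays of Gadd45b lay below the background percentile. Egr1 had the lowest fitted value, -0.69 (log2), and its arrays overlapped. No member passed the test across all 22206 gene features (limma, Benjamini-Hochberg adjusted p under 0.05): 0 of 10 were called higher and 0 lower, where 0% of all gene features were called in each direction. The adjusted p of the members ran from 0.637 to 0.993. At an unadjusted p under 0.05 in the same limma fit there were 2 members, Gadd45b and Ier5, both higher, where 3.38% of all gene features were higher and 3.64% lower. With 2 arrays in each group the smallest p of an exact permutation test is 1 in 3, so none was run.

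**Figure D1:**
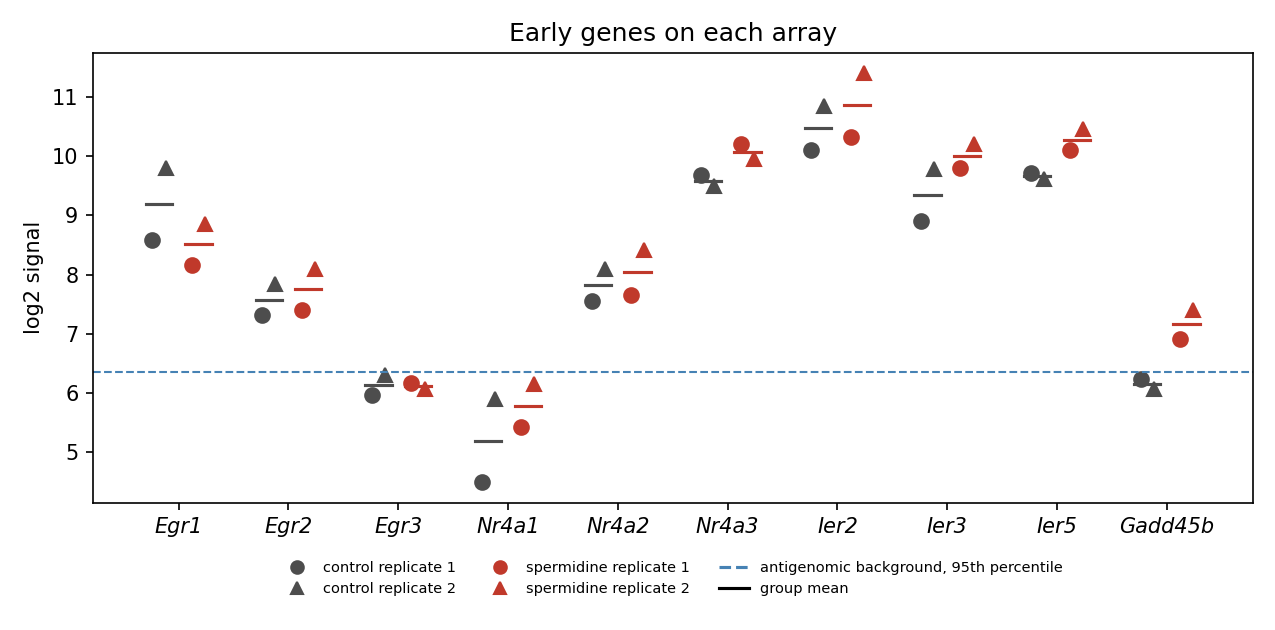
Log2 signal (vertical axis) of each of the 10 genes on the 4 arrays; grey stands for control, red for spermidine, circles for replicate 1 and triangles for replicate 2, short lines are group means and the dashed line is the antigenomic background percentile of 6.35. Red points lie above both grey points for Nr4a3, Ier3, Ier5 and Gadd45b, and in the other 6 genes the groups overlap.

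Among the EGR genes, Egr1 is the early transcription factor that the ERK pathway induces through serum response factor. Its log2 signal was 8.59 and 9.81 on the control arrays and 8.16 and 8.86 on the spermidine arrays. Control replicate 2 was the highest of the 4 arrays, and control replicate 1 lay between the spermidine arrays, so the groups overlapped. The difference of -0.69 ± 0.41 (SE, n = 2 per group; limma adjusted p = 0.782) was 0.567 times the gap of 1.22 between the control arrays. That gap was larger than in 99.5% of gene features. Without control replicate 2 the difference was -0.08, without control replicate 1 it was -1.30, without spermidine replicate 1 it was -0.35 and without spermidine replicate 2 it was -1.04.

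Egr2, a target of NFAT in T cells, stood at 7.31 and 7.84 on the control arrays and at 7.40 and 8.09 on the spermidine arrays. In each group replicate 2 was the higher array, and the groups overlapped. The difference was 0.17 ± 0.31 (SE; limma adjusted p = 0.940), with a 95% interval from -0.54 to 0.88. Leaving out control replicate 1 gave -0.09 and leaving out spermidine replicate 2 gave -0.17; it was 0.43 and 0.51 without control replicate 2 or spermidine replicate 1.

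Egr3, which works beside Egr2, had log2 signals of 5.97 and 6.30 on the control arrays and 6.16 and 6.06 on the spermidine arrays. All 4 values of this feature, the brightest of 3 for Egr3, lay below the background percentile of 6.35. Of the others, 1 read 6.40 on spermidine replicate 2 and was below that percentile on the other arrays, and the dimmest was below it on every array. The brightest feature gave a difference of -0.02 (95% interval -0.56 to 0.52), the next 0.14 and the dimmest 0.18, with means of 6.12, 6.07 and 3.70. Each of these differences was smaller than its SE (0.23, 0.27 and 0.32 in the same order), so they show no direction for Egr3. The identifiers of the brightest and the next feature mark them as unmapped. Leaving out control replicate 2 (0.14) or spermidine replicate 2 (0.03) turned the sign of the brightest feature.

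Nr4a1 encodes NUR77, a receptor that follows antigen receptor signal strength. It stood at 4.49 and 5.89 on the control arrays and at 5.42 and 6.15 on the spermidine arrays, below the background percentile throughout. Its control gap of 1.40 exceeded that of 99.8% of gene features and the groups overlapped. The difference was 0.59 ± 0.45 (SE; limma adjusted p = 0.835), or 0.421 times the control gap. It was -0.11 without control replicate 1, 1.29 without control replicate 2, 0.96 without spermidine replicate 1 and 0.22 without spermidine replicate 2.

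Nr4a2 (NURR1) was measured at 7.55 and 8.10 on the control arrays and at 7.66 and 8.42 on the spermidine arrays. Replicate 2 was again the higher array of each group and the groups overlapped. The difference of 0.22 ± 0.32 (SE; limma adjusted p = 0.924) was 0.388 times the control gap, and its 95% interval ran from -0.53 to 0.96. Leaving out control replicate 1 gave -0.06 and leaving out spermidine replicate 2 gave -0.17; it was 0.49 and 0.60 without control replicate 2 or spermidine replicate 1.

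Nr4a3 (NOR1) differed from its relatives in the order of its arrays. Its log2 signal was 9.68 and 9.50 on the control arrays and 10.20 and 9.95 on the spermidine arrays. The spermidine arrays were the higher pair, and in each group replicate 1 was the higher. The difference of 0.48 ± 0.23 (SE; limma adjusted p = 0.733), a 1.40-fold higher signal, was 2.67 times the control gap and 1.95 times the larger gap. It ran from 0.36 to 0.61 with 1 array left out. Of the 3 NR4A genes only Nr4a3 had groups that did not overlap, and Nr4a1 lay below background on every array. Whether the 3 differences differ, or relate to the letters of the promoters, was not tested.

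Ier2, an immediate early nuclear protein, stood at 10.10 and 10.85 on the control arrays and at 10.33 and 11.40 on the spermidine arrays. Spermidine replicate 2 was the highest array and spermidine replicate 1 lay between the control arrays. The difference was 0.39 ± 0.39 (SE; limma adjusted p = 0.876). The gap of 1.07 between the spermidine arrays was larger than in 97.8% of gene features. Without spermidine replicate 2 the difference was -0.15, without spermidine replicate 1 it was 0.92, and without control replicate 1 or 2 it was 0.01 and 0.76.

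Ier3 (IEX-1), a regulator of apoptosis and a target of NF-kappa-B, had log2 signals of 8.91 and 9.78 on the control arrays and 9.80 and 10.21 on the spermidine arrays. The groups did not overlap, but control replicate 2 and spermidine replicate 1 were nearly equal. The difference of 0.66 ± 0.32 (SE; limma adjusted p = 0.738) was 0.756 times the control gap. It was 0.22 without control replicate 1, 1.09 without control replicate 2 and 0.45 without spermidine replicate 2.

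Ier5, which is linked to the heat shock factor HSF1, had the closest control arrays of the 10 genes, 9.71 and 9.62, against 10.11 and 10.46 on the spermidine arrays. Both spermidine arrays were higher than both control arrays. The difference of 0.62 ± 0.24 (SE; limma adjusted p = 0.679), a 1.54-fold higher signal, was 7.24 times the control gap and 1.80 times the spermidine gap. Its 95% interval ran from 0.08 to 1.16, and the difference from 0.45 to 0.79 with 1 array left out.

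Gadd45b, a growth arrest and DNA damage gene that acts on the p38 and JNK kinase pathways and is induced in T cells by receptor and cytokine signals, had the largest difference of the 10. Its log2 signal was 6.24 and 6.06 on the control arrays and 6.92 and 7.41 on the spermidine arrays. The control arrays lay below the background percentile and the spermidine arrays above it, so the difference is no measure of the fold. The difference was 1.01 ± 0.25 (SE; limma adjusted p = 0.637), with a 95% interval from 0.42 to 1.59, and was 5.58 times the control gap and 2.05 times the spermidine gap. It ran from 0.76 to 1.25 with 1 array left out.

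Features whose identifiers mark them as negative controls had a 95th percentile of 9.96, well above the antigenomic one, and the sources used here do not say what they probe. By that bound, only Ier2 lay above on all 4 arrays.

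**Figure D2:**
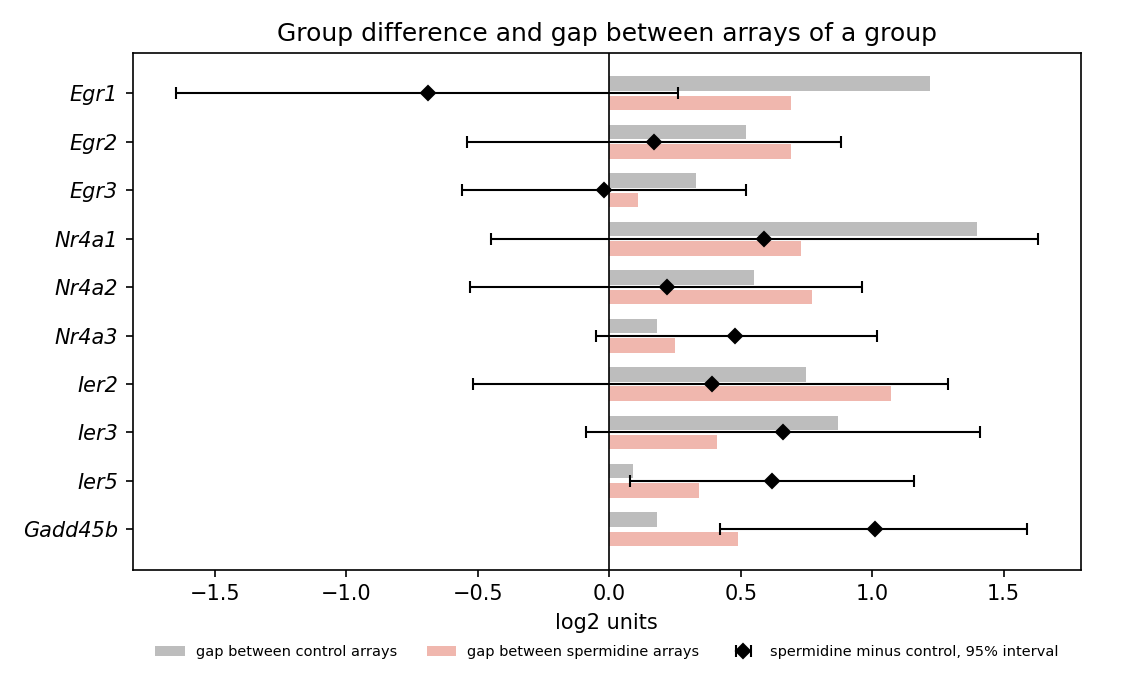
Log2 difference of spermidine minus control (diamonds, with the 95% interval of the limma fit) and the gap between the 2 arrays of each group (bars from 0), on a horizontal axis in log2 units. The diamond passes the ends of both bars for Nr4a3, Ier5 and Gadd45b, and the widest control bars are those of Nr4a1 (1.40) and Egr1 (1.22).

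Seen together, 8 of the 10 genes had a fitted difference above 0, as had 49.1% of all gene features. The median difference of the members was 0.43 and that of all gene features -0.007. The groups were apart with the spermidine arrays higher in 4 members, against 18.3% of all gene features, and with them lower in 0 members, against 18.4%. The difference exceeded the control gap in 3 members, and in 43.4% of all gene features. It exceeded the larger of both gaps in the same count of 3 members (24.5% of all gene features). The median gap of the members was 0.54 between control arrays and 0.59 between spermidine arrays, against 0.25 and 0.27 over all gene features. Some members lay closer than that: the control gaps of Nr4a3, Ier5 and Gadd45b were larger than those of 37.7%, 18.7% and 37.6% of gene features, and the spermidine gaps of Egr3 and Nr4a3 larger than those of 21.4% and 46.5%. Replicate 2 was the higher array in both groups for 6 members (Egr1, Egr2, Nr4a1, Nr4a2, Ier2 and Ier3), against 28.3% of all gene features. The 10 genes averaged 7.86 and 8.38 on the control arrays and 8.22 and 8.70 on the spermidine arrays, so that control replicate 2 stood above spermidine replicate 1. By family, the mean difference was -0.18 for EGR, 0.43 for NR4A and 0.55 for IER, with 3 genes in each. The EGR mean rested on Egr1, and the median of that family was -0.02. Leaving out 1 array moved the EGR mean to -0.53 (control replicate 1), 0.16 (control replicate 2), 0.03 (spermidine replicate 1) or -0.39 (spermidine replicate 2), so its sign depended on the arrays used. In the same order of arrays left out, the NR4A mean became 0.13, 0.73, 0.64 and 0.22, and the IER mean 0.30, 0.81, 0.86 and 0.25.

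These values moved with single arrays. The median difference of the members was -0.025 when control replicate 1 was left out and 0.13 when spermidine replicate 2 was. Leaving out control replicate 2 gave 0.54, and leaving out spermidine replicate 1 gave 0.70. The 5 genes that kept their sign with any 1 array left out were Egr1, Nr4a3, Ier3, Ier5 and Gadd45b.

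**Figure D3:**
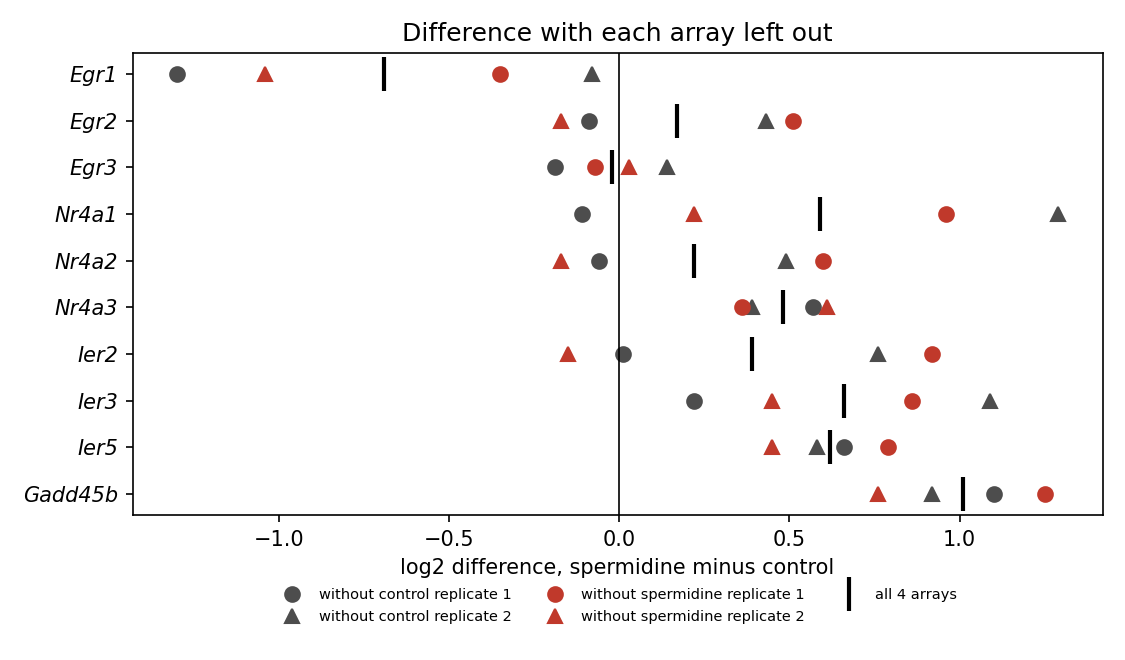
Log2 difference of spermidine minus control (horizontal axis) for each gene with all 4 arrays (black bar) and with each array left out (grey for a control array, red for a spermidine array, circles for replicate 1 and triangles for replicate 2). The points of Nr4a3 stay between 0.36 and 0.61 and those of Gadd45b between 0.76 and 1.25, while those of Nr4a1 spread from -0.11 to 1.29.

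The genes whose array-to-array profile lay nearest to the members' mean profile, by Euclidean distance of mean-centred log2 values over the 4 arrays among 9600 genes, were Etfdh, a mitochondrial electron carrier (distance 0.046), the liver X receptor gene Nr1h3 (0.047, below background on every array, at 4.95 to 5.83), the diacylglycerol kinase Dgka (0.049), the zinc finger gene Klf6 (0.062) and the T cell surface receptor Cd6 (0.075). Etfdh stood at 11.73 and 12.27 on the control arrays and at 12.10 and 12.63 on the spermidine arrays. With 4 arrays such likeness is a description only.

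Genes around the EGR, NR4A and IER pathway were taken from 10 lists with 114 genes, of which 105 were measured. None passed the limma test over all gene features (0 of 105, lowest adjusted p = 0.637). The groups were apart in 24 of the 105 with spermidine higher and in 19 with spermidine lower, beside the 18.3% and 18.4% of all gene features. These shares also stand beside the counts of each list that follows. At an unadjusted p under 0.05 (limma) the shares of all gene features were 3.38% higher and 3.64% lower.

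The 35 other early response genes had a median difference of 0.31, with 26 above 0, where 49.1% of all gene features were. In 7 of them both spermidine arrays were higher and in 3 both lower, against 18.3% and 18.4% of all gene features. Leaving out control replicate 1, or else spermidine replicate 2, brought that median to 0.17, while it became 0.42 with control replicate 2 left out and 0.44 with spermidine replicate 1 left out. In that list 5 genes were higher and 0 lower at an unadjusted p under 0.05 (limma), against 3.38% and 3.64% of all gene features. The AP-1 gene Junb stood at 10.14 and 10.27 on the control arrays and at 10.98 and 11.47 on the spermidine arrays, a difference of 1.02 ± 0.25 (SE). The antiproliferative gene Btg2 stood at 10.68 and 11.25 against 11.75 and 12.26, and the kinase gene Plk2 at 8.83 and 9.55 against 9.58 and 10.75. In these 3 genes the groups did not overlap. In Jun they did, with 11.00 and 12.23 on the control arrays and 12.21 and 13.35 on the spermidine arrays. The list averaged 9.13 and 9.49 on the control arrays and 9.47 and 9.77 on the spermidine arrays. As in the mean of the 10 members, control replicate 1 was the lowest array and spermidine replicate 2 the highest. Control replicate 2 and spermidine replicate 1 were nearly equal in this list. Egr4, the fourth EGR gene, stood at 4.82 in both control arrays and at 4.22 and 4.55 on the spermidine arrays, below background, and is named after its values were seen.

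Of 6 genes of serum response factor and its partners, 2 had both spermidine arrays higher and 3 both lower, with a median of -0.08; Mrtfa stood at 0.51, Srf at -0.53, Elk1 at -0.30 and Mrtfb at 0.24. Of 7 measured genes of MEF2 and its repressors, 3 had both spermidine arrays higher, with a median of 0.14. The repressor gene Hdac4 was at 8.94 and 9.20 on the control arrays and at 9.96 and 10.02 on the spermidine arrays, a difference of 0.92 ± 0.23 (SE; limma adjusted p = 0.637). Mef2c (0.71) lay below background on every array, and Hdac7 (-0.53) and Cabin1 (0.26) were the others with the largest statistics. At an unadjusted p under 0.05 (limma) 2 genes of the MEF2 list were higher, and in the serum response factor list 0 in either direction.

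Of 8 measured genes of calcineurin and NFAT, 1 had both spermidine arrays higher and 3 both lower (median -0.09). Nfatc1, the NFAT gene that receptor signals induce, stood at 11.18 in both control arrays and at 11.61 and 11.87 on the spermidine arrays. The calcineurin subunit genes Ppp3cc and Ppp3r1 had differences of -0.47 and -0.43, and the calcineurin inhibitor Rcan1 one of -0.38. Only Nfatc1 had an unadjusted p under 0.05 (limma): 1 gene was higher and 0 lower. The 5 measured CREB factors and coactivators, which bind the cyclic AMP response element or act on it, had a median of -0.19, with 0 both higher and 2 both lower (Atf1 -0.35, Creb1 -0.21); Crtc3 stood at -0.19 and Crtc1 at 0.02. None of these 5 had an unadjusted p under 0.05 (limma; 0 higher, 0 lower).

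Feedback inhibitors of the ERK pathway (9 genes, median 0.10) had 1 gene with both spermidine arrays higher and 2 with both lower. The ERK phosphatase gene Dusp5 stood at 10.86 and 11.48 on the control arrays and at 11.74 and 11.87 on the spermidine arrays (limma adjusted p = 0.706). Dusp6, another ERK phosphatase, had a difference of -0.34, and Spry4, below background, one of -0.21; the Ras pathway inhibitor Spred1 stood at 0.30. At an unadjusted p under 0.05, 1 gene was higher and 0 lower in this list (limma).

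Genes tied to EGR2 and EGR3 or to NR4A function gave no common direction. Of the 12 measured EGR corepressors and EGR2- or EGR3-linked genes, 3 had both spermidine arrays higher and 2 both lower, with a median of 0.03. The inhibitory receptor gene Lag3 stood at 6.60 and 6.32 on the control arrays and at 5.76 and 5.84 on the spermidine arrays, where only 1 control array was above background. Nrgn (0.41) lay below background, Dgka stood at 0.31 and the co-stimulatory receptor gene Tnfrsf9 at 0.22. At an unadjusted p under 0.05 (limma) 0 genes of that list were higher and 1 lower. Of the 10 measured NR4A-linked dysfunction genes, 1 had both spermidine arrays higher and 0 both lower (median 0.08). That gene was Havcr2, the TIM-3 receptor, at 6.87 and 6.55 on the control arrays and at 7.36 in both spermidine arrays (limma adjusted p = 0.656), and it alone had an unadjusted p under 0.05 in that list. Tox2 stood at -0.48, Tigit at 0.44 and Batf at 0.35.

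Of 6 measured GADD45 family genes and partners, 3 had both spermidine arrays higher and 2 both lower (median 0.04). Gadd45a, the relative that p53 induces, was at 6.85 and 7.13 on the control arrays and at 7.64 and 7.53 on the spermidine arrays, a difference of 0.60 ± 0.23 (SE; limma adjusted p = 0.685). Gadd45g, the third relative, had a difference of -0.05 and is named after its value was seen. The mitotic kinase gene Cdk1, whose complex GADD45 proteins inhibit, stood at 11.49 and 10.79 on the control arrays and at 9.96 and 8.87 on the spermidine arrays. Pcna was at -0.69 and the kinase gene Map3k4, which GADD45 proteins activate, at 0.37. Cdk1 was the gene of this list with an unadjusted p under 0.05 and a lower signal, and Gadd45a the one with a higher signal (limma).

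The gene of HSF1 itself was not analysed here. Of 7 measured heat shock genes, 3 had both spermidine arrays higher and 2 both lower (median 0.13). Hspa1a, an inducible HSP70 gene, stood at 6.60 and 7.06 on the control arrays and at 7.41 and 8.14 on the spermidine arrays. Hspa1b, a near-identical copy whose signal may not be separate, stood at 5.75 and 6.07 against 6.79 and 7.64, with both control arrays below background. Dnajb1, a co-chaperone gene, had a difference of -0.56 and Bag3, below background, one of 0.45. The limma fit gave 2 of the 7, Hspa1a and its copy Hspa1b, an unadjusted p under 0.05 and a higher signal, and 0 a lower one.

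**Figure D4:**
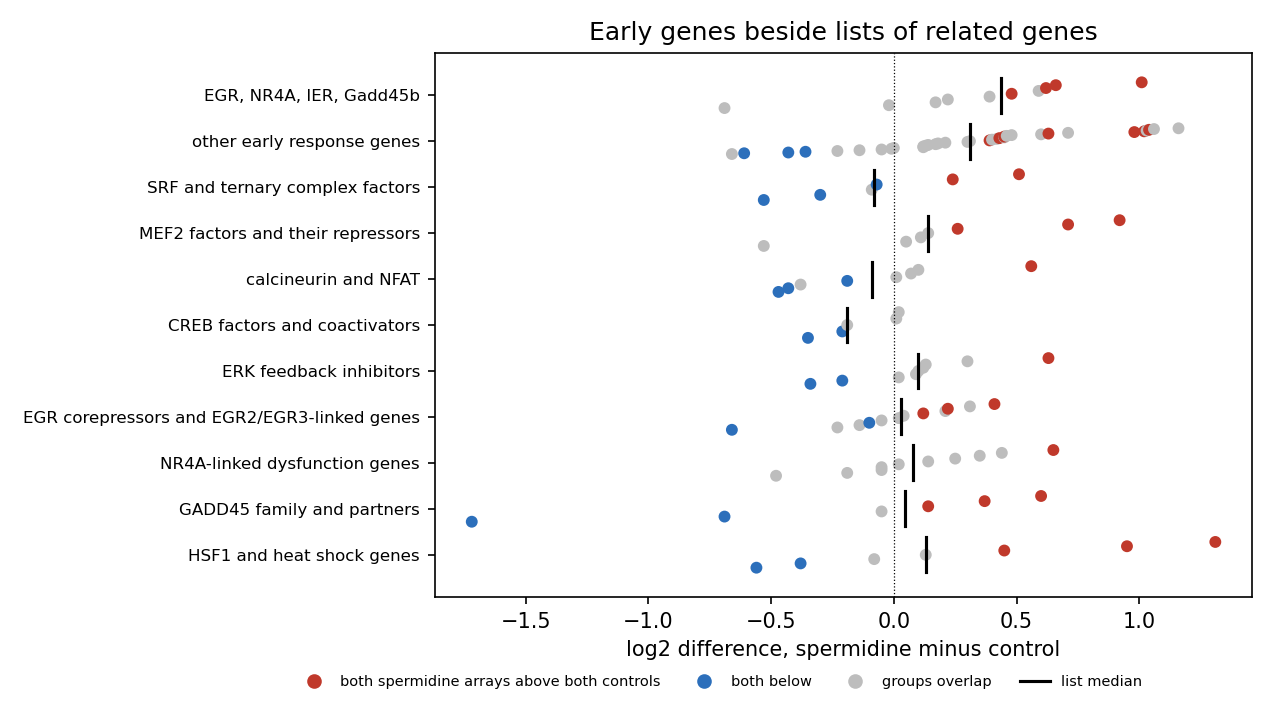
Log2 difference of spermidine minus control (horizontal axis) for each measured gene of the 10 members and of the 10 lists of related genes; red marks genes with both spermidine arrays above both control arrays, blue genes with both below, grey genes whose groups overlap, and black lines the list medians. The medians are 0.43 for the members and 0.31 for the other early response genes, and lie between -0.19 and 0.14 in the other 9 lists.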

How the data were processed

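Total RNA of 4 cultures, 2 per group, was measured on Clariom S Mouse arrays. The authors deposited log2 signals. The submitters' processing notes name Affymetrix Expression Console and RMA, without versions. RMA subtracts background, aligns arrays by quantiles and compresses differences of dim features. The log2 base was inferred from the values. Of 28846 features, 6640 control features were left out of the tests and 22206 gene features were tested, 19572 of them with 1 symbol in the platform annotation, 0 with several and 2634 with none; 0 symbols changed on lookup in RefSeq (GRCm38.p6).

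Groups came from the sample titles. A linear model (limma 3.58.1 in R 4.3.3, empirical Bayes with 5.96 prior and 2 residual degrees of freedom) was fitted to all gene features, two-sided, p-values were adjusted over all 22206 by the Benjamini-Hochberg method, and the threshold was 0.05. Intervals of 95% use the moderated variance, and ± SE is that of the limma difference. The members and lists were chosen with earlier results of these data known. Up to 4 genes per list with the largest statistics are named. Alternatives were other priors, array weights, normalizations, filters, a mean over features, a replicate block and leaving out each array. No batch or scan date was found in the labels.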

Additional observations from a re-analysis of the deposited data

How the results depend on the processing

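Over 14 alternatives, 0 of the 10 early genes were called under any, and the lowest adjusted p of a member was 0.272. Other priors, filters, array weights and the replicate block leave a member's difference as it is by construction. With all arrays kept, 31 member values moved under another normalization or feature rule, and 1 turned: Egr3, at 0.10 with the mean of all features of a symbol. With 1 array left out, 8 of 40 member values turned. Here Egr2 ran from -0.17 to 0.51, Egr3 from -0.19 to 0.14, Nr4a1 from -0.11 to 1.29, Nr4a2 from -0.17 to 0.60 and Ier2 from -0.15 to 0.92. The turns came without control replicate 1 (Egr2, Nr4a1, Nr4a2), without control replicate 2 (Egr3) and without spermidine replicate 2 (Egr2, Egr3, Nr4a2, Ier2). The median difference of the members ran from -0.025 to 0.70 with 1 array left out, and the count of members with both spermidine arrays higher from 4 to 9 and lower from 0 to 2, where fewer arrays make separation easier. That higher count was 3 after a further quantile normalization and after cyclic loess. Features called over all genes were 0, and 1, which was none of the members, with an intensity trend in the prior, median centring, cyclic loess, the filter at the median level or the replicate block. The labels do not say that replicate numbers mark shared animals, and whether the numbers pair the samples was not tested. The deviations of same-numbered arrays correlated at 0.21 across 22206 gene features. With the replicate block 2350 features had an unadjusted p under 0.05 (limma), against 1558 without it. The values of each family and of the other early genes without each array were added after seeing the data. Signals of Egr3, Nr4a1 and Gadd45b near or below background limit what their differences can show.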
